A study of Mus musculus with 4 samples.

Results

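The genes described here belong to 7 ubiquitin ligase families, named Rnf, Trim, Fbxo, Fbxl, Fbxw, Klhl and Cul with a number directly after the family name. They were taken from 2 lists of RNA immunoprecipitation (RIP-seq) peaks of mouse liver by gene name alone, whatever their values. Of the 8889 genes in the lists, 153 were members. They held 539 of the 33968 peaks of the AAV-GFP list and 649 of the 41511 peaks of the AAV-NAT10 list.

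Ubiquitin ligases pass ubiquitin from a conjugating enzyme to a chosen protein, which often marks that protein for the proteasome. Most RNF and TRIM proteins carry a RING domain that binds the conjugating enzyme themselves. In the cullin-RING ligases the work is divided: a cullin is the scaffold, and an F-box protein (FBXO, FBXL, FBXW) or a BTB-Kelch protein (KLHL) is the exchangeable receptor that picks the substrate. F-box receptors mostly work on CUL1 and Kelch receptors on CUL3. Ligases set the amounts of transcription factors, iron regulators and signalling receptors in liver.

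Liver RNA came from male C57BL/6 mice. They had been given AAV, an adeno-associated virus, with GFP as the control or with NAT10, the enzyme that makes N4-acetylcytidine (ac4C) in RNA. Each virus had 1 immunoprecipitated and 1 input library, so no value has a replicate and no test between the viruses was made. The labels' protocol texts name db/db mice and lean controls as the RNA source, the titles do not, and the library type names ac4C without settling what the antibody bound. Age, virus dose, promoter and number of animals were not found in the labels. The lists give enrichment of IP over input, not expression: of 10 defining hepatocyte genes 8, Alb and Ttr among them, held no peak, and Apob and Cps1 held peaks only in AAV-NAT10, so the labelled tissue could not be checked from them. A peak's fold is the authors' deposited enrichment over background. Its score is their peak caller's p-value on a negative log10 scale, times 10, with a ceiling near 3100. Both rank peaks within their own list. Where AAV-GFP and AAV-NAT10 values appear together, they are a description of each list and not a measured change.

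Some listed peaks had a border exactly at a member's annotated transcript start. The peaks are listed with a transcript ID, and whether their borders follow annotated exons was not tested. Among members with a transcript start in the RefSeq table, a peak lay over the first 30 transcribed bases of 17 of 118 in AAV-GFP (14.4%) and 24 of 120 in AAV-NAT10 (20.0%). Over all genes these shares were 13.9% and 18.2%. In 9 and 11 of these members the peak's border was the annotated first base itself. This was not counted over all genes, so how usual it is in the lists is not known. The 5 starts below are shown because a peak held them in both lists and had the highest AAV-NAT10 folds among such members. They are the transcribed strand in RefSeq GRCm38.p6, 5′ to 3′, and capitals mark the first match to CNNCNNCNN, cytidines spaced by a pair of any bases, like the contexts in which acetylated cytidines have been reported.
Rnf26 (chr9:44113022-44113051, minus strand): cccttccaaattcactccgatctcgccaca
Rnf217 (chr10:31609696-31609725, minus strand): agggccctaggtgctgcacgaggagaggga
Klhl9 (chr4:88722479-88722508, minus strand): agctgtgCAGCCGCTCctagcccgggggat
Fbxw7 (chr3:84815577-84815606, plus strand): gagcgagcggggCCGCCACCGccgcctcta
Rnf4 (chr5:34336250-34336279, plus strand): cgcaagcaggcggggggcgtgaccggaaga

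The peaks of Rnf217, Klhl9 and Rnf4 ended on the first base in both lists, while those of Rnf26 and Fbxw7 reached past it. The motif was found in 2 of these 5 windows and in 4 of the 13 members whose start lay under a peak in both lists (30.8%). It was in 32.1% of the 32851 RefSeq starts, searched the same way on the transcribed strand. Start peaks differed in rank within their lists. The peaks of Rnf26 and Klhl9 spanned nearly all of the RefSeq gene, and Klhl9, a Kelch receptor of dividing cells, was at the score ceiling in both lists with folds of 9.68 and 11.1. Rnf26, a ligase of the endoplasmic reticulum, had a score of 1257 with a fold of 4.84 in AAV-GFP, and in AAV-NAT10 a fold of 14.6 at the ceiling. Fbxw7, the receptor that leads cyclin E, MYC and SREBP proteins to destruction, had a start peak of 502 bases with a low score in AAV-GFP, 67.68, and a fold of 5.05. In AAV-NAT10 its score was 496.8 and its fold 11.0, the highest of that gene. The start peak of Rnf4, a ligase that reads SUMO chains, had folds of 6.75 and 10.7 over 292 bases.

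The families were unequally represented among the genes with a peak. RefSeq held 275 protein-coding genes of these names, of which 153 had a peak (55.6%, exact 95% interval 49.5 to 61.6), against 39.0% of all protein-coding genes. Cullins led with 7 of 8, only Cul7 being without, followed by Fbxl with 13 of 18 (72.2%) and Rnf with 56 of 83 (67.5%). Klhl had 20 of 37 (54.1%), Fbxo 19 of 37 (51.4%) and Trim 31 of 68 (45.6%). Fbxw came last with 7 of 24 (29.2%). Of the 17 Fbxw genes without a peak, 15 lay on chromosome 9, Fbxw13 to Fbxw16 and Fbxw18 to Fbxw28. All intervals cover counting error only, and absence from a list does not show absence of binding.

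**Figure D1:**
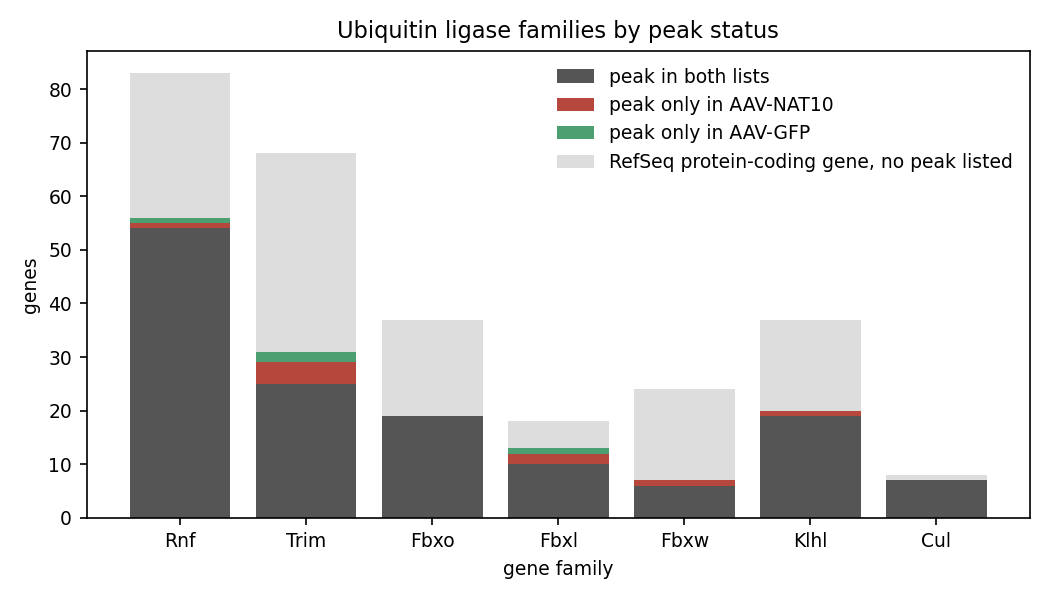
Number of genes (vertical axis) in each of the 7 families (horizontal axis), stacked by whether a peak was listed for both viruses, for AAV-NAT10 alone, for AAV-GFP alone or for neither. Most members with a peak had it in both lists, and by number of genes without a peak the Trim bar (37) and the Rnf bar (27) are the largest.

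Nearly every member with a peak had one under both viruses. Of the 153 members 140 did so (91.5%, 85.9 to 95.4), against 79.7% of all 8889 genes with a peak. AAV-NAT10 alone listed 9 of them (5.88%, 2.72 to 10.9; all genes 16.1%). AAV-GFP alone listed 4 (2.61%, 0.717 to 6.56; all genes 4.29%). All 19 Fbxo and all 7 Cul members were in both lists, as were 54 of 56 Rnf and 19 of 20 Klhl members. By number, Trim had the most members in a single list, 6 of 31, of which 4 were AAV-NAT10 genes. By share in both lists, Fbxl was lowest with 10 of 13 (76.9%), before Trim with 25 of 31 (80.6%) and Fbxw with 6 of 7 (85.7%). These shares depended on which peaks were taken. With equal numbers of top peaks 81.5% of members and 76.5% of all genes were shared, and the AAV-NAT10-only shares were alike at 13.1% and 13.3%. With peaks at or above the median fold the AAV-NAT10-only share was 26.4% of members and 23.8% of all genes.

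The 13 members found in 1 list rested on a single peak each, apart from Trim80. In AAV-NAT10, Trim35 had 1 peak of 2684 bases with a fold of 4.21, and Trim47 had 1 of 892 bases with a fold of 3.65. The peak of Fbxw5, an F-box receptor with WD40 repeats, had by far the highest score of these, 1630, (chromosome 2, 25501103 to 25502151) with a fold of 4.05. Klhl8 had a fold of 6.43 over 906 bases, the highest fold of the 9 genes in AAV-NAT10 alone. Trim80, Rnf215, Fbxl15, Fbxl8 and Trim34b had highest folds of 4.76, 4.86, 4.69, 3.02 and 2.94, the first of them in 3 peaks. Among the 4 found only in AAV-GFP, Trim13, a ligase anchored in the endoplasmic reticulum, had 1 peak of 1060 bases with a fold of 3.90. Fbxl6 had a fold of 4.18 over 955 bases and a score of 330.5. The peaks of Rnf144a and Trim5 were close to the lowest score listed, 50, at 53.32 and 50.27.

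Peak by peak, the members' lists overlapped much as the whole lists did. Of the 539 AAV-GFP peaks of members 491 shared at least 1 base with an AAV-NAT10 peak (91.1%, 88.4 to 93.4; all peaks 87.4%). Of the 649 AAV-NAT10 peaks, also 491 overlapped an AAV-GFP peak (75.7%, 72.2 to 78.9; all peaks 71.5%). Both borders were the same for 401 of them, 74.4% of the AAV-GFP and 61.8% of the AAV-NAT10 peaks of members (all peaks 73.6% and 60.2%). How many of these equal borders are annotated exon borders was not tested. The peaks without a counterpart were mostly extra pieces of genes that were in both lists, 147 of 158 AAV-NAT10 peaks and 44 of 48 AAV-GFP peaks. Over all peaks this held for 9660 of 11829 and 3818 of 4265. The members' peaks without a counterpart were the weaker ones within their list, with median folds of 4.89 against 7.23 in AAV-NAT10. In AAV-GFP the median folds were 5.10 against 6.33. All peaks were alike in this, with 4.92 against 7.35 in AAV-NAT10 and 4.88 against 6.56 in AAV-GFP. Within AAV-GFP the share of overlapped peaks ran from 36 of 45 for Cul (80.0%) to 58 of 59 for Klhl (98.3%). Within AAV-NAT10 it ran from 65 of 96 for Trim (67.7%) to 80 of 95 for Fbxo (84.2%).

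In both lists were 4 members whose peaks did not share a base: Cul9, Fbxw2, Rnf39 and Trim28. The same was not counted over all 7081 shared genes, so how usual this is in the lists is not known. Trim28, the corepressor KAP1 that silences retroelements together with zinc finger proteins, had a 133-base peak in AAV-GFP (chromosome 7, 13025644 to 13025776, fold 3.45). Its AAV-NAT10 peak lay just upstream (13024721 to 13025061, fold 7.63, score 1235). Fbxw2, an F-box receptor, had a 570-base peak in AAV-GFP (chromosome 2, 34806878 to 34807447, fold 6.12). Its AAV-NAT10 peak of 624 bases lay elsewhere (34822558 to 34823181, fold 8.29).

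Covered length is the sum of a gene's peak lengths. AAV-NAT10 peaks covered more bases in 90 of the 140 shared members (64.3%; all shared genes 58.8%), AAV-GFP peaks in 28 (20.0%; all 27.0%), and 22 had the same number in both (15.7%; all 14.2%). The median difference, AAV-NAT10 minus AAV-GFP, was 81.5 bases, against 93 bases over all shared genes, and the range went from -1774 to 3255. Fbxw members were all on the AAV-NAT10 side, 6 of 6, whereas Fbxo members split 7 to 7 with 5 equal. By number of peaks, 65 had more in AAV-NAT10 (46.4%; all 46.4%) and 15 more in AAV-GFP (10.7%; all 14.4%).

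**Figure D2:**
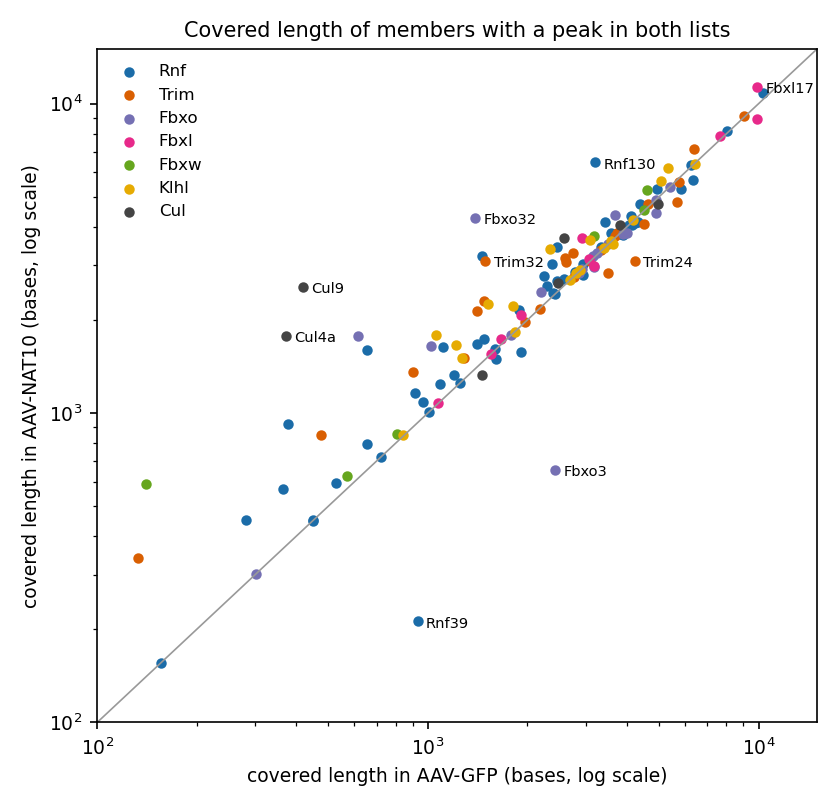
Covered length in bases on log axes, AAV-GFP horizontally and AAV-NAT10 vertically, for the 140 members with a peak in both lists, coloured by family, with the line of equal length. Points above the line outnumber those below it, 90 to 28. Named points away from it are Fbxo3, Rnf39 and Trim24 below and Rnf130, Fbxo32, Cul4a, Cul9 and Trim32 above, and Fbxl17 marks the long end.

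The RING finger (Rnf) genes were the largest group, 56 members with 207 AAV-GFP peaks and 251 AAV-NAT10 peaks. The highest AAV-GFP fold of all members was in Rnf217, a RING-between-RING ligase: a 234-base peak (chromosome 10, 31534663 to 31534896) reached 25.8, with a score of 2424. The same piece reached 17.2 in AAV-NAT10, with a score of 2277. Its other AAV-GFP folds lay between 6.95 and 10.8, so the piece stood apart from the rest of its own gene. In AAV-NAT10 the highest Rnf folds were those of Rnf111 (21.1) and Rnf11 (20.9). Rnf111, or Arkadia, strengthens TGF-beta signalling by degrading its inhibitors, and its peak was the 1679-base piece at the 3′ end of the gene (chromosome 9, 70425429 to 70427107), with a fold of 17.2 in AAV-GFP. Rnf152, a lysosomal ligase that restrains mTORC1, had a piece of 8038 bases in both lists with folds of 18.1 and 17.8.

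Among Rnf genes, covered length differed through further pieces or through a longer piece. Rnf130, a membrane-bound ligase, was covered over 3209 bases by 7 peaks in AAV-GFP and over 6464 bases by 11 peaks in AAV-NAT10, the largest difference of any member. Of these, 1219 and 1743 bases were 2 neighbouring AAV-NAT10 pieces with folds of 5.72 and 4.76. Rnf41, which degrades the receptor ERBB3, was covered over 1459 and 3224 bases. Its last piece began at the same base in both lists (chromosome 10, 128438083) and was 1276 bases long in AAV-GFP and 2520 in AAV-NAT10. In the other direction, Rnf39 had 931 bases with a fold of 3.32 in AAV-GFP and 212 others with a fold of 7.21 in AAV-NAT10, and Rnf111 6335 and 5653 bases. The giant ligase Rnf213, the moyamoya disease gene, held the most peaks of any member, 22 and 26, and its highest folds were 11.5 and 14.6.

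Among the tripartite motif (Trim) genes, 31 members held 76 and 96 peaks. Trim25, a ligase of the antiviral RIG-I pathway, had the highest AAV-NAT10 fold of this family at 20.1, in a piece of 4099 bases at the 3′ end of the gene (chromosome 11, 89016195 to 89020293). The same piece had a fold of 14.9 in AAV-GFP, and both scores were at the ceiling. Trim2 had a like structure, with a 4811-base piece at the 3′ end and folds of 12.1 and 14.7. The highest AAV-GFP fold of the family, 16.1, was in Trim24, a bromodomain coregulator that limits liver tumours in mice. Trim24 held 12 peaks over 4228 bases in AAV-GFP and 11 over 3106 bases in AAV-NAT10, and its highest fold in AAV-NAT10 was 8.93. Of the AAV-GFP bases, 637 were a peak at the start of the gene (chromosome 6, 37870838 to 37871474, fold 4.49) and 438 another inner piece, neither of them listed for AAV-NAT10.

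Trim39 was likewise covered over more bases in AAV-GFP, 5669 against 4813, with a 687-base piece listed there alone. Trim32, a ligase of muscle proteins, went the other way with 1492 and 3112 bases in 1 peak each, the AAV-NAT10 peak enclosing the AAV-GFP one. Both of its folds were low, 3.85 and 4.40. Trim37, which limits centriole assembly, was covered over 1481 and 2295 bases by 2 and 6 peaks, with folds of at most 6.19. Several Trim members on chromosome 7 (Trim5, Trim12a, Trim12c, Trim30a, Trim30d, Trim34a and Trim34b) belong to a cluster of close copies, so reads may be shared between them and their values are uncertain.

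**Figure D3:**
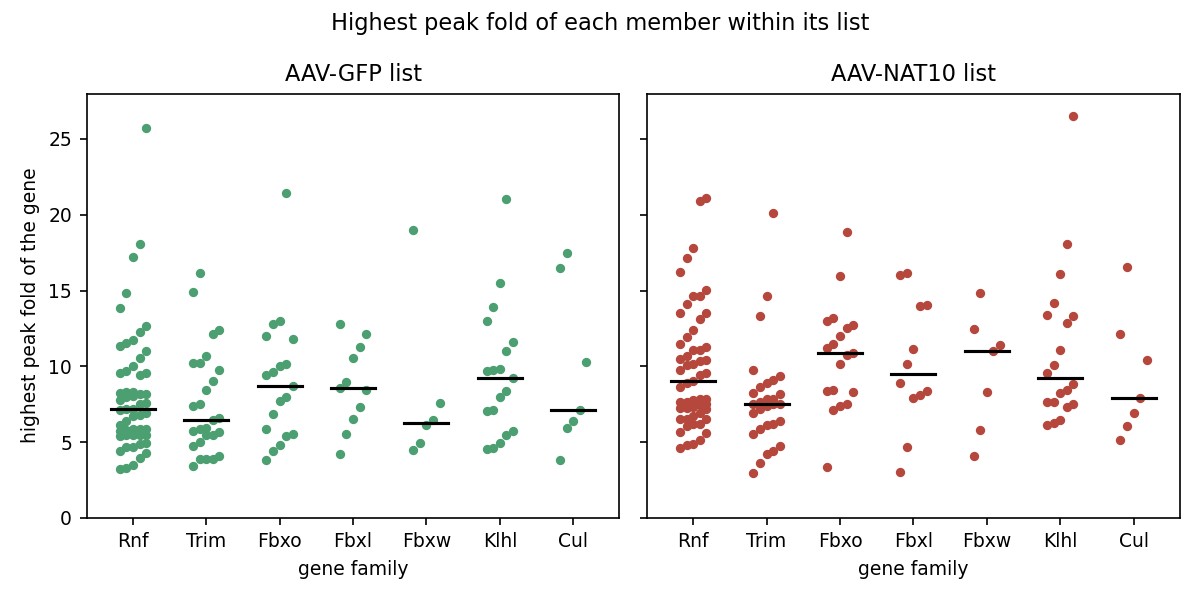
Highest peak fold of each member (points, vertical axis) by family (horizontal axis), with the family median as a bar, for the AAV-GFP list on the left and the AAV-NAT10 list on the right. Rnf217 at 25.8 tops the left panel and Klhl24 at 26.5 the right one; each panel ranks genes within its own list.

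Many F-box genes, though not all, encode receptors of the CUL1 ligases. Fbxo45, an F-box gene needed for synapse formation, had a 3157-base piece (chromosome 16, 32230112 to 32233268) with folds of 21.4 in AAV-GFP and 18.9 in AAV-NAT10, at the score ceiling in both. Its other piece, of 357 bases, had folds of 6.05 and 5.80. Fbxo9 had a 100-base piece with folds of 12.77 and 15.95, and Fbxo38 reached 13.0 and 10.9. Fbxl14, a receptor for the transcription factor Snail, had a single peak, of 3067 bases with a fold of 8.96 in AAV-GFP and of 3137 bases with a fold of 16.2 in AAV-NAT10. Fbxl18 reached 12.1 and 16.03, but 4843 of the 5575 bases of that peak lay outside the RefSeq gene, so its assignment is uncertain. Fbxl21 had 1 peak of 1075 bases in both lists with folds of 10.5 and 11.1.

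Among F-box genes with unequal coverage, Fbxo3 lay farthest toward AAV-GFP, with 2428 bases there and 654 in AAV-NAT10. Its other 5 peaks were listed with equal borders for both viruses, and the difference was a single piece of 1774 bases (chromosome 2, 104054836 to 104056609), listed for AAV-GFP alone (fold 8.87, score 1981). Fbxo32, or atrogin-1, the ligase of muscle wasting, lay farthest the other way with 1390 and 4269 bases. Here 2 of the 3 AAV-NAT10 peaks, of 1493 and 1214 bases with folds of 5.88 and 5.16, had no counterpart. Fbxo7, which acts in mitochondrial clearance, was covered over 614 and 1774 bases, of which 932 were 1 AAV-NAT10 piece. Fbxo28 was covered over 4901 and 4431 bases, and Fbxl20 over 9902 and 8944. Toward AAV-NAT10 were Fbxl17, which checks the pairing of BTB proteins, with 9893 and 11307 bases, and Fbxl5, the iron sensor that degrades IRP2, with 2931 and 3669. All 5 AAV-GFP peaks of Fbxl5 were found again among its 8 AAV-NAT10 peaks.

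The Fbxw members with WD40 repeats included the best-known substrate receptors. Fbxw11, the beta-TrCP2 protein that degrades beta-catenin and the inhibitor of NF-kB, held 11 and 12 peaks over 4508 and 4544 bases. Its strongest piece, of 250 bases (chromosome 11, 32735138 to 32735387), had folds of 18.96 in AAV-GFP and 14.8 in AAV-NAT10. Fbxw7 held 4 peaks over 3189 bases in AAV-GFP, and all 4 were found again among its 7 AAV-NAT10 peaks over 3740 bases. The 3 further pieces were short, with folds between 3.34 and 4.45. Fbxw8, which pairs with CUL7, was covered over 4605 and 5266 bases. Its strongest AAV-NAT10 piece, of 165 bases (fold 12.5, score 839.1), was not listed for AAV-GFP, where the highest Fbxw8 fold was 6.44.

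The Kelch genes, receptors of the CUL3 ligases, held the highest AAV-NAT10 fold of all members. Klhl24, a receptor for keratin, had a 4839-base piece (chromosome 16, 20122906 to 20127744) with a fold of 26.5 in AAV-NAT10 and 21.1 in AAV-GFP, at the ceiling in both. Its other pieces in AAV-NAT10, 4 in number, matched AAV-GFP pieces exactly and had lower folds. Klhl42 had a 5084-base piece with folds of 11.0 and 18.1. Klhl2 and Klhl3 both lead WNK kinases of salt transport to destruction. Klhl2 held 12 peaks in each list, with highest folds of 15.5 and 16.1, over 3620 and 3516 bases. Klhl3 held 5 peaks over 1517 bases in AAV-GFP, all of them among the 10 over 2246 bases in AAV-NAT10.

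The extra coverage of Klhl21 and Klhl15 in AAV-NAT10 was in each case 1 more piece, away from the long one. Klhl21, a receptor at the dividing cell's midzone, had 1 piece of 2346 bases with folds of 9.81 and 13.4 in both lists. A further 1044 bases with a fold of 5.25 were listed for AAV-NAT10 alone. Klhl15, which degrades a PP2A subunit, had a piece of 5308 bases with a fold of 8.39 in AAV-GFP, and pieces of 5340 and 872 bases with folds of 7.23 and 7.54 in AAV-NAT10. Of the 19 shared Klhl members 14 had the greater covered length in AAV-NAT10, where the share of all shared genes was 58.8%. Their median difference was small, 32 bases against 93 over all shared genes. The 2 covered over more in AAV-GFP were Klhl2 and Klhl24, the latter with 6446 bases against 6383.

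The cullins, the scaffolds, held 45 and 52 peaks in 7 genes. Cul1, the scaffold of the F-box ligases, had its strongest AAV-GFP peak at the 3′ end of the gene (chromosome 6, 47525554 to 47526139), where the fold was 17.5 and the score was at the ceiling. In AAV-NAT10 the same 586 bases had a score of only 303.0 with a fold of 6.40, and the highest Cul1 fold there was 12.1, in another piece. Cul5, the scaffold for SOCS-box receptors, had a 3429-base piece at its 3′ end (chromosome 9, 53614582 to 53618010) with folds of 16.5 and 16.6, both at the ceiling. Cul3, the scaffold of the Kelch ligases, held 10 and 11 peaks over 3822 and 4052 bases, with highest folds of 7.13 and 10.4.

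Cul4a and Cul9 stood out by coverage. Cul4a, which builds ligases with DDB1, had 3 short pieces with equal borders in both lists. AAV-NAT10 alone had a further piece at the 3′ end of the gene (chromosome 8, 13146532 to 13147940), 1409 bases long, with fold 6.81 and score 1568. In all, 372 bases of Cul4a were covered in AAV-GFP against 1781 in AAV-NAT10. Cul9, a large cytoplasmic relative that binds p53, had 420 bases with a fold of 3.81 in AAV-GFP and 2556 others in 5 AAV-NAT10 peaks with folds of at most 5.16. Cul1 and Cul5 were covered over more bases in AAV-GFP, 1455 against 1327 and 4969 against 4740.

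**Figure D4:**
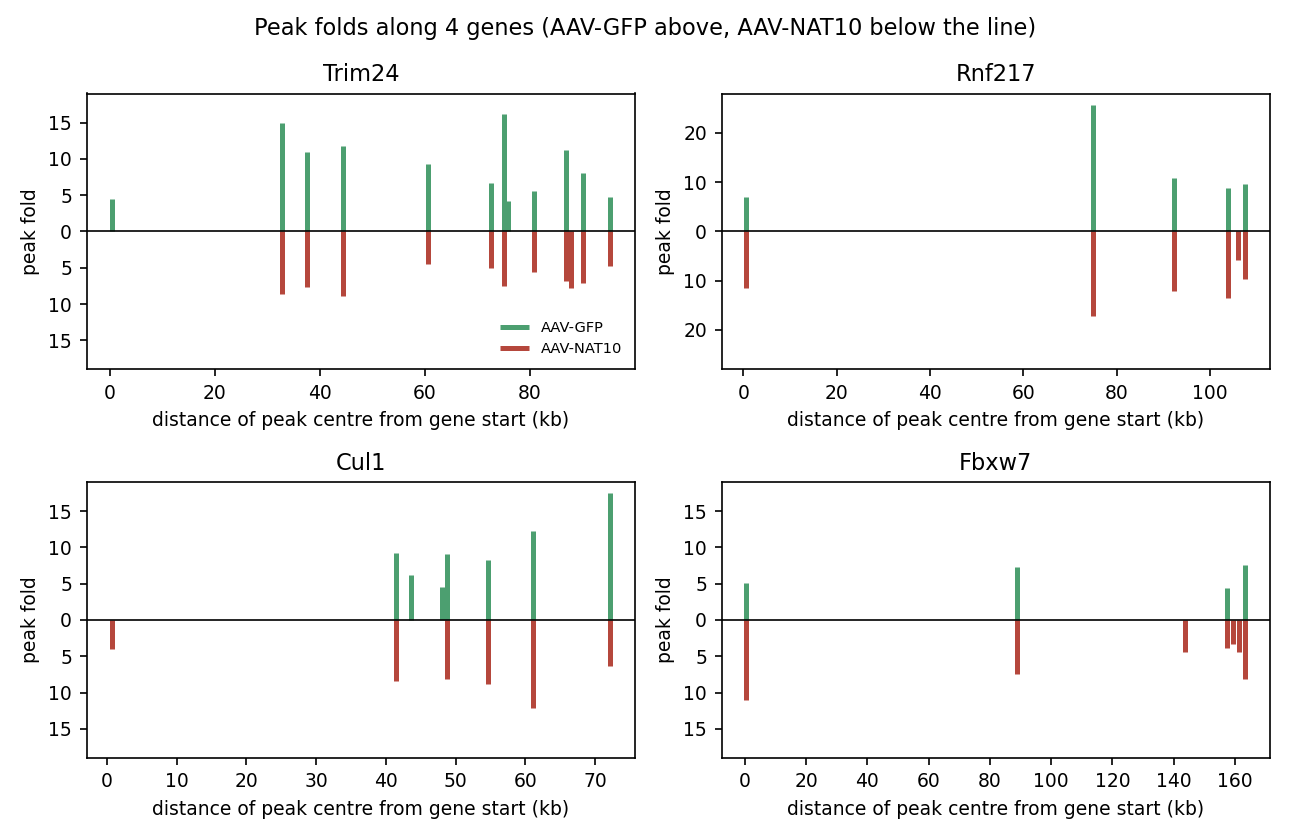
Fold of each peak (vertical axis) against the distance of the peak's centre from the RefSeq gene start in kb (horizontal axis) for Trim24, Rnf217, Cul1 and Fbxw7, with AAV-GFP peaks drawn upward and AAV-NAT10 peaks downward from 0. Most peaks have a partner at the same place, the highest AAV-GFP peak lies at the far end of Cul1 and well inside Rnf217, and the Trim24 start peak has no AAV-NAT10 partner.

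Peaks with the strongest scores were spread over all families. By peak, 30 of 539 in AAV-GFP (5.57%; all peaks 4.56%) and 59 of 649 in AAV-NAT10 (9.09%; all peaks 6.96%) were at the ceiling. By gene, the ceiling was reached by 30 of the 144 members in AAV-GFP (20.8%; all genes 18.3%) and by 49 of the 149 in AAV-NAT10 (32.9%; all genes 25.7%). It was reached in both lists by 27 members, in AAV-NAT10 alone by 22 and in AAV-GFP alone by 3, namely Cul1, Rnf114 and Trim30d. This split was not counted over all genes, so it does not show anything particular to the members. Rnf213 had the most such peaks in AAV-NAT10, 4, followed by Rnf10, Rnf43 and Klhl24 with 3 each. In Rnf10, a regulator of small-subunit ribosome ubiquitination, 2 of the 3 were short pieces of 118 and 185 bases with folds of 11.1 and 11.2 that were not listed for AAV-GFP. Rnf43, which removes Frizzled receptors and so dampens Wnt signalling, had highest folds of 7.97 and 13.1. The authors' FDR for member peaks ran from 4.38% to 11.07% in AAV-GFP and from 2.53% to 5.03% in AAV-NAT10. In AAV-GFP the ceiling pieces of Cul1, Cul5, Klhl24 and Rnf152 had the highest of these, 11.07%. The Rnf144a peak there, with a score of 53.32, had 4.98%. A ceiling score in AAV-GFP thus did not go with a low FDR.

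Long pieces made up about as much of the members' coverage as all other pieces together. Pieces of at least 2000 bases were 61 of 539 in AAV-GFP (11.3%; all peaks 8.11%) and 65 of 649 in AAV-NAT10 (10.0%; all peaks 7.01%), and held 51.2% and 49.6% of the members' bases. Pieces under 100 bases were 6.86% and 7.86%, against 12.2% and 13.4% of all peaks. The longest was the 9018-base piece of Trim56, listed with the same borders in both lists, of which 5642 bases lay outside the RefSeq gene. Of the members with 2 or more peaks and a known strand, the piece nearest the 3′ end was the longest in 63 of 79 in AAV-GFP and 75 of 97 in AAV-NAT10 (79.7% and 77.3%; all genes 75.0% and 75.9%). A peak border lay within 5 bases of the gene's 3′ end in 59 of 118 members (50.0%; all genes 43.5%) and 63 of 120 (52.5%; all genes 43.6%). Whether such borders follow the annotation was not tested here either. In each list 4 members, Fbxl18, Rnf11, Trim56 and Trim65, had a peak of which most lay outside the RefSeq gene.

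The members' folds were near those of their lists. The median fold of member peaks was 6.24 in AAV-GFP, at percentile 48.8 of that list, and 6.81 in AAV-NAT10, at percentile 53.8. By family the median percentile ran from 35.3 for Fbxw to 63.3 for Klhl in AAV-GFP, and from 32.2 for Cul to 62.9 for Klhl in AAV-NAT10. Klhl peaks were thus the strongest by this measure in both lists, and the order of the other families differed. The lists' own annotation named ubiquitin transferase or ligase activity for 102 of the 153 members, among them 48 of 56 Rnf, 18 of 20 Klhl and 16 of 31 Trim genes. It gave a pathway (KEGG) for only 21 members, and 14 of these were in ubiquitin-mediated proteolysis, 6 of them cullins.

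Other genes of the pathway are set beside the 79.7% of all genes with a peak that were in both lists. Of 27 E2 conjugating enzymes with a peak, 22 were shared (81.5%), 4 were in AAV-NAT10 alone and 1, Ube2a, in AAV-GFP alone. Ube2b was covered over 192 and 1857 bases. Of 30 activating enzymes, cullin adaptors and signalosome genes 21 had a peak, 16 in both lists (76.2%) and 4 only in AAV-NAT10, namely Rbx1, the RING subunit of cullin ligases (1355 bases), and Cops4, Skp1a and Uba1, which are named after their values were seen. Nedd8, whose product activates cullins, had a 48-base peak in AAV-GFP alone. Uba6 reached a fold of 13.5 in AAV-NAT10 and Fzr1 10.8 in AAV-GFP. Btrc, the close relative of Fbxw11, was covered over 1315 and 2493 bases, and Cops7b over 2080 and 976.

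Of the HECT and RING-between-RING ligases 29 were in both lists (96.7%) and 1, Hace1, only in AAV-NAT10. They were the most richly covered of these groups, with medians of 16 and 17 peaks a gene against 2 and 3 for the members. Herc2 reached a fold of 20.2 in AAV-GFP and Ube3b 28.4 in AAV-NAT10. Nedd4l was covered over 5887 and 7877 bases. Of 38 other RING and U-box ligases with a peak 36 were in both lists (94.7%), Syvn1, the ligase of the endoplasmic reticulum, only in AAV-NAT10 (1937 bases) and March1 only in AAV-GFP. Rc3h1, the RNA-binding Roquin, reached 23.7 and 24.6, March2 was covered over 1321 and 4376 bases and Mib2 over 882 and 269. Of the deubiquitinating Usp genes 38 of 40 with a peak were in both lists (exact interval 83.1 to 99.4%), and of the zinc finger Zfp genes 223 of 260 (85.8%, 80.9 to 89.8).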

How the data were processed

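RIP-seq libraries of mouse liver were compared as 2 peak lists, 1 per virus. The peaks carry MACS names and positions in mm10, per the file headers and the submitters' processing notes; the sources used here give no aligner, filter or MACS version. Per the file headers, the authors deposited a fold (a linear ratio over background), a score of 10 times the -log10 p-value and an FDR, read as a percent because it goes above 1. Other columns, such as peak lengths, are as deposited. Starts count from 0 in the lists and from 1 here. Read counts and depths are unknown.

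Peaks were assigned to genes by the lists' names; 152 of 153 members matched a RefSeq symbol (GRCm38.p6) and Fbxo18 its gene ID. Strand was known for 123. The overlap routine was tested on simulated intervals. Exact (Clopper-Pearson) 95% intervals cover counting error only. Python 3.11.15, pandas 2.3.3, NumPy 2.4.6 and SciPy 1.17.1 were used.

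The members and lists were chosen with earlier results of these data known. Genes were named by rule: per family the 2 with the highest fold in each list, the 2 longest found in 1 list, the 2 with the largest covered length difference each way, and those at the score ceiling; in other pathway lists 1 in place of 2. Other genes named (such as Trim28, Fbxw2, Klhl3, Cul3 and Rnf4) were chosen after their values were seen. Some members and pathway genes are not reported here by name.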

Additional observations from a re-analysis of the deposited data

How the results depend on the processing

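The counts depended mainly on which peaks were taken. With the 16984 top peaks by score from each list, 106 members were shared (81.5%; all genes 76.5%). AAV-NAT10 alone listed 17 (13.1%; all genes 13.3%), against 9 with all peaks. AAV-GFP alone listed 7 (5.38%; all genes 10.2%), against 4. Overlap was found for 76.2% of AAV-GFP member peaks (all peaks 74%) and 71.2% of AAV-NAT10 member peaks (all peaks 73.9%). The median covered length difference was 0 bases, as over all shared genes. With peaks at or above their list's median fold, 87 were shared (69.6%; all genes 67.1%). AAV-NAT10 alone listed 33 (26.4%; all genes 23.8%) and AAV-GFP alone 5 (4%; all genes 9.11%). The overlapped shares were 79.3% in AAV-GFP (all peaks 76.6%) and 58.8% in AAV-NAT10 (all peaks 62.5%). The median difference was 0 bases, against 65 over all shared genes. Here and with the top peaks, members' AAV-NAT10 peaks overlapped less often than all peaks, unlike in the full lists. With scores of at least 100, 132 were shared (89.8%; all genes 77.4%). AAV-NAT10 alone listed 13 (8.84%; all genes 18.2%) and AAV-GFP alone 2 (1.36%; all genes 4.44%). Of the members' AAV-NAT10 peaks 69.7% overlapped (all peaks 68%). With at least 2 peaks per gene, 100 were shared (81.3%; all genes 72.8%). AAV-NAT10 alone listed 22 (17.9%; all genes 21.9%) and AAV-GFP alone 1 (0.813%; all genes 5.35%). Requiring an overlap of 0.5 of the peak gave 91.1% (all peaks 87.1%) and 75.3% (all peaks 71.1%). All these settings but the last take fewer peaks or genes by construction. No paired analysis was possible because each virus had 1 IP and 1 input library, and no replicate could be left out. Unknown depth and the lack of replicates limit every comparison between the lists.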
